A study of Bos taurus with 4 samples.

Results

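Cattle autosomes are acrocentric: the centromere sits next to one end of each chromosome, and assemblies of the cattle genome are conventionally numbered from that end. Sequence around a centromere is rich in satellite DNA, short units repeated in tandem, and is classically packed as heterochromatin, a compact state in which little DNA is accessible. ATAC-seq maps accessible DNA with a transposase that cuts where chromatin is loose and tags the cut ends for sequencing. Here the first 1000000 bp of the 29 autosomes were examined in the rumen, the fermentation chamber of the bovine stomach. The deposited lists do not mark centromeres, so the place of the centromere in these sequences, and the repeats and genes at the positions below, were not analysed here.

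The samples were rumen of Holstein cattle, all male and of wild-type genotype. Fetal rumen at 90 days was represented by 2 libraries, fetal 1 and fetal 2, and adult rumen at 2 years by 2 libraries, adult 1 and adult 2. Fetal tissue came from slaughtered cows, and 2 of the 4 fetuses collected were male, per the labels, which do not tie a library to a fetus and do not describe how adult tissue was obtained. Nothing thus says that replicates came from separate animals, and the p-values measure only the spread between these libraries, which may be technical. Rumen tissue is a mixture of cell types, and a peak seen in one library and not in another cannot be assigned to more accessible DNA per cell rather than more cells of a type.

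Peaks of the 4 lists were merged wherever they overlapped by 1 bp or more, which gave 19749 regions. Those on the autosomes whose start lay before 1000000 bp, counted from 0, were taken as members, whichever library carried the peak. There were 519 members among 12598 autosomal regions, against 12079 regions further along the autosomes. The choice used position alone. A region is said below to be open in a library when a peak of that library lies in it.

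Library facts set the scale of every comparison. Values of the libraries are given in the order fetal 1, fetal 2, adult 1, adult 2 unless named otherwise. The lists held 496, 868, 4156 and 8074 autosomal peaks. Each library's background, the most frequent expected pileup of fragments over a base, was 0.495, 0.426, 1.37 and 1.61. Adult libraries thus had both the higher background and the longer lists, and a count of peaks cannot be compared between the ages without regard to this. The lists also differed in their lower limit of width. The narrowest peak of each whole list was 186, 112, 67 and 81 bp. The part of this difference in comparisons of width, overlap and pileup between libraries was not tested.

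Summed over the autosomes, all 4 libraries had far more peaks per length in the first megabase than elsewhere. Fetal 1 had 2.55 peaks per Mb there and 0.172 per Mb over the rest of the autosomes, and fetal 2 had 4.38 and 0.302. Adult 1 had 11.3 against 1.56, and adult 2 had 14.2 against 3.12. The first megabase was therefore denser by 14.8 and 14.5 times in the fetal libraries and by 7.25 and 4.55 times in the adult ones. On the log2 scale the density ratio averaged 3.20 ± 0.83 (SD, n = 4), and it was above 0 in 4 of 4 libraries. The exact two-sided sign-flip permutation p over the 4 libraries was 0.13, the smallest that 4 libraries allow, so this design cannot pass 0.05 for any within-library contrast. Single autosomes did not all share this: 18, 21, 25 and 25 of the 29 were denser in their first megabase, and 11, 8, 2 and 1 had no peak there.

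Members were concentrated towards the start of the sequence. The first 100 kb of the autosomes held 189 of the 519 members (36.4%) and 111 of the 227 members that carried peaks of 2 or more libraries (48.9%). The first 200 kb held 281 members (54.1%) and 154 of those 227 (67.8%). By contrast only 31 of 107 members that started at 500 kb or later recurred. Recurring regions were scarce past the boundary. In the second megabase 123 regions were found and 1 of them recurred (0.813%, Wilson 95% interval 0.144 to 4.46). In the third megabase 4 of 145 recurred.

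**Figure D1:**
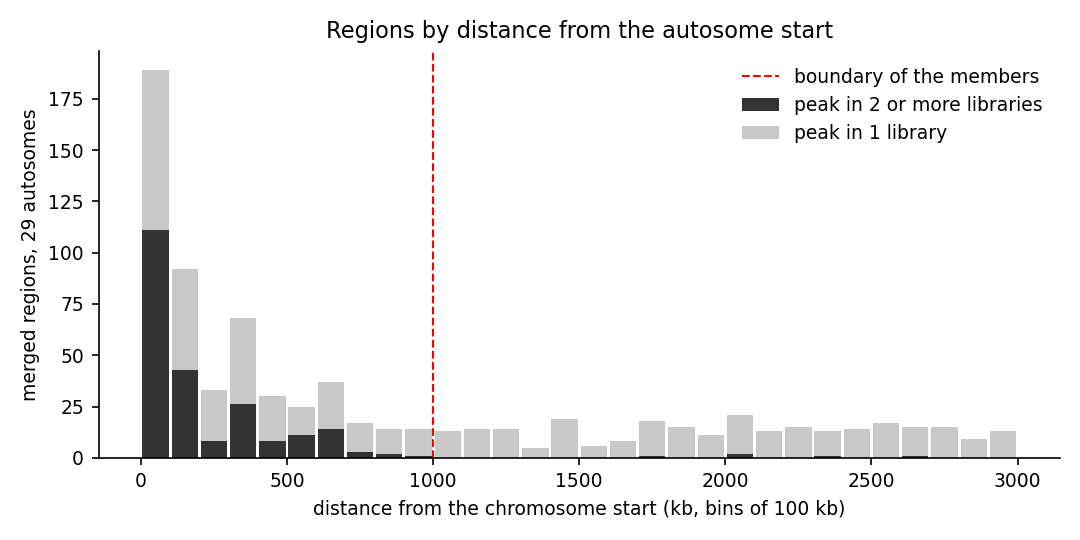
Merged regions of the 29 autosomes in bins of 100 kb from the chromosome start (x axis, kb) over the first 3 megabases, split into regions with peaks of 2 or more libraries (dark) and of 1 library (light); the dashed line marks 1000 kb. Dark bars stand at 111 regions in the first bin and 1 in the tenth, with rises between them to 26 at 300 to 400 kb and 14 at 600 to 700 kb. Single-library regions level off at a low number.

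The regions nearest the boundary on either side were each open in 1 library. The last members before it lay on autosome 22 from 985781 to 985883 (open in adult 2 alone, fold 3.45), on autosome 27 from 988734 to 988923 (fetal 1 alone, fold 4.47) and on autosome 2 from 989583 to 989649 (adult 1 alone, fold 4.22). The first regions after it lay on autosome 17 from 1000591 to 1000699 (adult 1 alone, 4.64), on autosome 24 from 1012442 to 1012623 (adult 2 alone, 4.64) and on autosome 5 from 1017427 to 1017527 (adult 2 alone, 3.74). Fold is the authors' fold enrichment of a peak over its local background. The single recurring region of the second megabase was an adult one on autosome 12 from 1711263 to 1711460, at a fold of 4.14 in adult 1 and 4.60 in adult 2. A boundary placed at 2000000 bp would add it alone to the recurring members.

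Members recurred between libraries far more often than other regions. Of the 519 members, 227 were open in 2 or more libraries (43.7%, 39.5 to 48.0), where the background over the other autosomal regions was 2.77% (335 of 12079, 2.50 to 3.08). The difference was 41.0 percentage points (Newcombe 95% interval 36.7 to 45.3). These intervals treat regions as independent, which neighbouring regions are not, and they cover counting error only. The first megabase held 2.43% of the autosomal regions of 1 library but 40.4% of the recurring ones. With 1 adult library left out the recurring members numbered 104 (without adult 1) or 103 (without adult 2), and the difference was 22.1 or 26.9 percentage points.

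Members fell into a few library patterns. Regions with peaks of adult 1 and adult 2 and of no fetal library, called adult-specific, numbered 122 (23.5%, 20.1 to 27.3; background 1.76%). Regions open in all 4 libraries numbered 42 (8.09%, 6.04 to 10.8; background 0.48%). Another 39 were open in fetal 2 and both adult libraries (7.51%; background 0.348%), whereas 8 combined fetal 1 with both adult libraries (background 0.0497%). Counted by number of libraries, 92 members were open in 3 or more (background 0.894%), and 101 in at least 1 library of each age (background 0.985%). Regions with peaks of both fetal libraries and of no adult one, called fetal-specific, numbered 4 (0.771%, 0.300 to 1.96; background 0.0248%). Of the remaining recurring members, 6 paired fetal 2 with adult 2 (background 0.0331%), 2 fetal 1 with adult 1 (0.0331%), 1 fetal 1 with adult 2 (0.0166%) and 0 fetal 2 with adult 1 (0.00828%). Another 2 joined both fetal libraries with adult 1 (background 0%) and 1 joined them with adult 2 (0.0166%). These backgrounds are shares of all regions elsewhere, 97.2% of which were open in 1 library, so each comparison carries the difference in recurrence. Among recurring regions, adult-specific ones were 122 of 227 members and 213 of 335 elsewhere, which is a smaller share in members. Regions of all 4 libraries were 42 of 227 and 58 of 335.

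A single library accounted for 292 members (background 97.2%). Fetal 1 alone had 10 of these (background 2.86%), fetal 2 alone 19 (5.12%), adult 1 alone 77 (28.7%) and adult 2 alone 186 (60.6%). Peaks of adult 2 alone thus made up the largest class of members, as they did elsewhere, but with a smaller share. At least 1 fetal library had a peak in 134 members (background 8.99%).

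These counts leaned on single libraries, because a group then rests on the library that remains. Leaving out adult 1 gave 309 adult-specific members, and leaving out adult 2 gave 212. Fetal-specific members numbered 24 when fetal 1 was left out and 14 when fetal 2 was, and without fetal 1 there were 83 members open in each of the 3 other libraries. The intervals of the shares of adult regions that were also fetal overlapped between the first megabase and the rest. Both adult libraries had peaks in 211 members (background 2.64%), of which fetal 1 had peaks in 50 (23.7%, 18.5 to 29.9) and fetal 2 in 81 (38.4%, 32.1 to 45.1). Among the 319 such regions elsewhere the shares were 20.1% (16.0 to 24.8) and 31.3% (26.5 to 36.6). In the other direction, both fetal libraries had peaks in 49 members (background 0.522%), of which adult 1 covered 44 (89.8%) and adult 2 covered 43 (87.8%). Elsewhere the shares of 63 such regions were 92.1% and 95.2%, so those of the members were not higher.

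Peaks of the first megabase were stronger by the authors' q-value. A −log10 q of 10 or more was reached by 32 of 74 member peaks of fetal 1 (43.2%), 48 of 127 of fetal 2 (37.8%), 204 of 328 of adult 1 (62.2%) and 207 of 412 of adult 2 (50.2%). Elsewhere on the autosomes the shares were 8.77%, 7.56%, 5.88% and 2.88%. The difference averaged 42.1 ± 12.0 percentage points (SD, n = 4; exact sign-flip p = 0.13), with all 4 libraries higher in the first megabase. Of the 100 strongest autosomal peaks by q of each library, 49, 45, 44 and 44 lay in the first megabase. Of all autosomal peaks, 14.9%, 14.6%, 7.89% and 5.10% lay there.

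Fold enrichment differed much less than q. The median fold of member peaks was 5.31, 5.34, 5.65 and 4.97, and that of peaks elsewhere 4.60, 4.69, 4.22 and 3.98. The mean difference was 0.94 ± 0.36 (SD, n = 4; exact sign-flip p = 0.13). The direction did not hold in every library once weak peaks were removed: with −log10 q of at least 5 the medians of fetal 1 were 6.55 in members and 6.93 elsewhere. With the 496 strongest autosomal peaks of each library, those of adult 2 were 7.17 and 7.36.

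The pileup of the peaks differed more than fold did. Each peak's pileup and expected pileup were recovered from its deposited fold and p. A pileup counts the fragments over a base and not all fragments of a peak. Member peaks had a median pileup of 26, 20, 33.5 and 27 fragments, against 6, 6, 10 and 10 elsewhere. The expected pileup, which is the local background, was higher too. Relative to the background of the library, its median at member peaks was 6.39, 5.73, 2.86 and 1.78, where peaks elsewhere had 1.07, 1.14, 1.11 and 1.02. A local background more than 1% above that of the library was found at 91.9%, 92.1%, 79.3% and 77.7% of member peaks and at 65.4%, 73.7%, 74.3% and 52.3% elsewhere, a mean difference of 18.8 ± 9.9 percentage points (SD, n = 4; exact sign-flip p = 0.13).

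A local background at least 2 times that of the library, a limit chosen after the values were seen, was found at 79.7%, 73.2%, 59.8% and 46.4% of member peaks. Elsewhere the shares were 16.4%, 12.7%, 5.69% and 3.13%. Pileup divided by local expected pileup had no common direction: the median in members was 0.822 and 0.817 times that elsewhere in the fetal libraries and 1.14 and 1.11 times in the adult ones (exact sign-flip p = 0.75 on the log2 scale). The expected pileup at member peaks was thus raised in all 4 libraries. How the local background was set is not given, so fragments of the peaks themselves may enter it, which was not tested. The part of the local background in the number, q and recurrence of member peaks was not tested either.

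**Figure D2:**
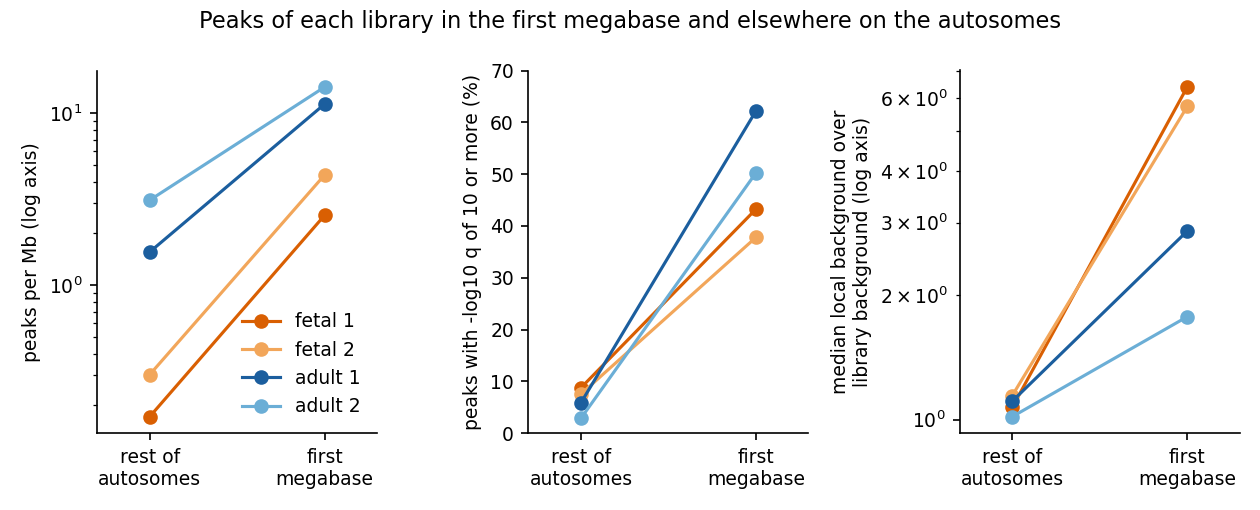
Peaks of the 4 libraries in the first megabase and over the rest of the autosomes, with 1 line per library: peaks per Mb (log axis), percent of peaks with −log10 q of 10 or more, and median local expected pileup over the library's background (log axis). Each line rises from the rest of the autosomes to the first megabase in each panel, and the local background rises most in the fetal libraries, to 6.39 and 5.73.

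Peaks with −log10 q under 5 were found again in the replicate library at a higher share in the first megabase than elsewhere, in each library. From 5 to under 10 the libraries differed. Of adult 1 peaks in that bin, 39 of 53 members (73.6%, 60.4 to 83.6) overlapped a peak of adult 2, against 67 of 198 elsewhere (33.8%, 27.6 to 40.7), and in adult 2 the shares were 28 of 61 (45.9%) and 63 of 303 (20.8%). In fetal 1 the order was the other way, with 14 of 22 members (63.6%, 43.0 to 80.3) and 16 of 23 elsewhere (69.6%, 49.1 to 84.4), and in fetal 2 they were 14 of 26 (53.8%) and 19 of 44 (43.2%), so the fetal intervals overlapped. From 3 to under 5 the shares in adult 1 were 14 of 33 (42.4%, 27.2 to 59.2) and 57 of 1091 (5.22%, 4.05 to 6.71). In the same bin of adult 2 they were 9 of 42 (21.4%, 11.7 to 35.9) and 43 of 1666 (2.58%, 1.92 to 3.46). Under 3, 4 of 9 member peaks of fetal 1 were found in fetal 2, while 0 of 287 were found elsewhere (interval up to 1.32%).

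In the strongest bin the intervals overlapped in each library. For −log10 q of 10 or more the shares in adult 1 were 89.2% (84.2 to 92.8) in members and 86.2% (81.1 to 90.1) elsewhere, and in adult 2 they were 86.0% (80.6 to 90.1) and 88.2% (83.3 to 91.8). In fetal 1 they were 30 of 32 and 37 of 37, and in fetal 2 31 of 48 (64.6%, 50.4 to 76.6) and 41 of 56 (73.2%, 60.4 to 83.0). No test over regions was made, since regions are not replicates. Merged regions covered 0.391% of the first megabase and 0.0585% of the rest, so an overlap by position alone is also more frequent in the first megabase, and its part in these shares was not tested.

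**Figure D3:**
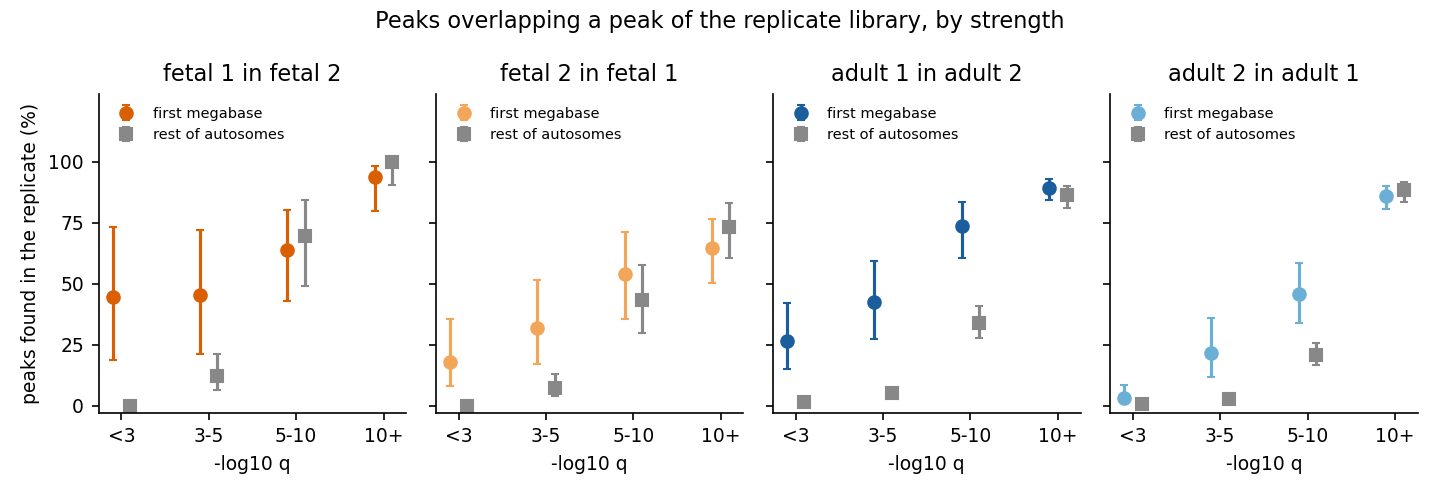
Percent of the peaks of each library that overlap a peak of the replicate (y axis) in 4 bins of −log10 q (x axis), for the first megabase (coloured circles) and the rest of the autosomes (grey squares), with Wilson 95% intervals. The circles lie above the squares in the 2 weaker bins of each library, and the intervals overlap in the strongest bin.

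Over all patterns together members were wider. The median width of a merged member was 136 bp, against 101 bp elsewhere, and 42 members (8.09%) exceeded 500 bp, against 0.472% of the others. Within the main recurring patterns they were narrower: the median was 559.5 bp against 690 bp elsewhere for regions of all 4 libraries, 257 against 294 bp for those of fetal 2 and both adult libraries, and 145.5 against 168 bp for adult-specific ones. Single-library regions, which made up 56.3% of members and 97.2% of the others, had medians of 106 and 100 bp. Within libraries the median peak width in members and elsewhere was 318.5 and 237 bp in fetal 1, 210 and 147 bp in fetal 2, 119 and 85 bp in adult 1, and 139.5 and 104 bp in adult 2 (mean difference 53.5 ± 22.9 bp, SD, n = 4; exact sign-flip p = 0.13). Among the 496 strongest autosomal peaks the adult order turned, with 144 bp in members and 155 bp elsewhere in adult 1 and 196 and 202 bp in adult 2. Width was also uneven among members. The widest, on autosome 13 from 343577 to 346462, spanned 2886 bp, was open in all 4 libraries and held 2, 3, 3 and 2 of their peaks. It was followed by an adult-specific region of 2015 bp on autosome 2 from 222255 to 224269 and a region of 1989 bp open in all 4 libraries on autosome 28 from 514178 to 516166.

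The members were crowded. The median gap between neighbouring members was 3038.5 bp, where regions elsewhere on the autosomes lay a median of 130628 bp apart. For recurring members the median gap was 1331 bp, against 54008.5 bp for recurring regions elsewhere. Gaps of 1000 bp or less made up 41.9% of those between recurring members and 27.5% of those between recurring regions elsewhere. Linking members across gaps of up to 10000 bp gave 208 groups, of which 149 were a single region. The 27 groups of 5 or more regions lay on 17 autosomes and held 282 members (54.3%), including 182 of the 227 recurring ones (80.2%) but 100 of the 292 single-library ones (34.2%). These 27 groups spanned 2069 to 86211 bp, with a median of 15160 bp.

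The largest group lay on autosome 13 from 49938 to 136148 and held 33 regions, 17 of them recurring. A second one on the same chromosome, from 321563 to 346878, held 19 regions, 14 recurring, and its local background was raised in each library, to 19.7, 14.8, 8.87 and 12.0 times that of the library. On autosome 25 a group of 19 regions from 1084 to 35691 held 10 recurring ones, and on autosome 16 a group of 17 regions from 74546 to 109312 also held 10.

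The group at the very start of autosome 23, from 1393 to 26826, differed from these. All of its 17 regions recurred: 9 were open in all 4 libraries, 3 in 3 libraries, and 5 were adult-specific. Its regions covered 35.8% of the stretch. Folds within it ran from 2.16 to 23.4, and their medians were low, at 3.20, 4.01, 3.99 and 3.43. The local background there was 38.4, 30.4, 24.6 and 29.2 times that of the library. Both ages thus had a raised expected pileup at the peaks of this stretch.

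Autosomes differed widely. The median autosome held 12 members, and the number ran from 1 on autosomes 3 and 14 to 81 on autosome 13 (15.6% of all members). Recurring members were most numerous on autosomes 13 (46), 23 (29), 16 (24), 28 (17) and 21 (16), which together held 132 of the 227 (58.1%). Autosomes 3, 6, 11, 14 and 22 had none. Adult-specific members were found on 21 autosomes and members open in all 4 libraries on 13. The mix also varied: on autosome 16, 19 of 24 recurring members were adult-specific, whereas on autosome 23 this held for 8 of 29. Autosome 1 had 43 members, of which 40 were seen in 1 library.

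On autosome 13 a single megabase held a large part of the chromosome's peaks in 3 of the 4 libraries. It held 16 peaks of fetal 1 and 26 of fetal 2 there, against 7 and 26 over the remaining length. Adult 1 had 62 peaks there and 63 over the remaining length, and adult 2 had 58 and 265. Leaving autosome 13 out gave 181 recurring members, 98 adult-specific ones, 36 open in all 4 libraries and 2 fetal-specific ones, so the pattern of the other chromosomes had the same direction.

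**Figure D4:**
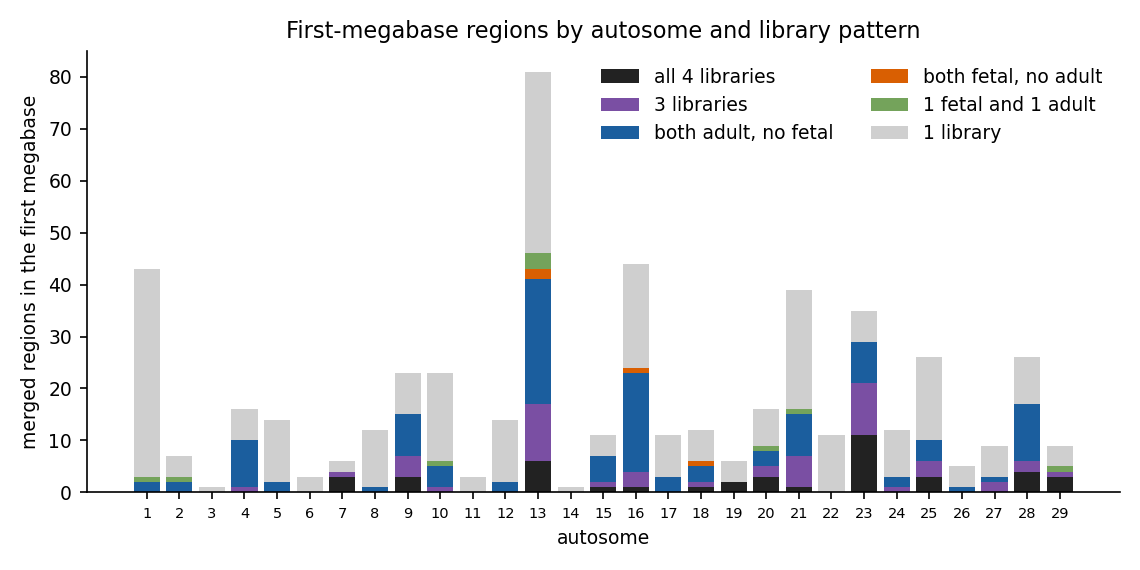
Members on each of the 29 autosomes (y axis, merged regions), stacked by library pattern from regions of all 4 libraries at the bottom to regions of 1 library at the top. Autosome 13 holds 81 members and autosomes 3 and 14 hold 1 each, and the 40 single-library regions of autosome 1 stand above 3 recurring ones.

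The regions open in all 4 libraries were ranked by their lowest fold. The first lay on autosome 7 from 120114 to 120662, with folds of 31.7, 50.5, 87.5 and 84.4 at pileups of 149, 178, 564 and 874 fragments. By q it ranked at 3, 2, 3 and 3 among the autosomal peaks of these libraries. Another on autosome 7, from 555405 to 555937, had folds of 20.0, 27.6, 43.0 and 47.3. They were 549 and 533 bp wide, near the median of 559.5 bp for members open in all 4 libraries, and in both the adult libraries had the higher folds.

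On autosome 13 from 59934 to 60404 the folds were 27.9, 28.6, 47.7 and 58.5. On autosome 19 from 25296 to 25759 they were 17.0, 34.2, 68.7 and 64.9. The region on autosome 16 from 828908 to 829095 went another way, with 26.4, 33.2 and 43.6 in the first 3 libraries and 15.6 in adult 2. There the adult replicates lay further apart than the fetal ones, and adult 2 was the lowest of the 4.

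Read as fold, the 42 shared members were higher in adult rumen. Their median folds were 5.72, 6.99, 9.82 and 9.62, so that the groups did not overlap (6.35 ± 0.90 and 9.72 ± 0.14, SD, n = 2 each; exact permutation p = 0.33, the smallest that 2 against 2 libraries allow). Read as pileup over the background of the library, the order was the other way and the difference small. The medians were 75.8, 77.5, 69.7 and 72.7 times background, which is 76.6 ± 1.2 in fetal and 71.2 ± 2.1 in adult rumen (SD, n = 2 each; exact permutation p = 0.33). The deposited fold equals pileup plus 1 over expected pileup plus 1. The local background at these members was a median of 8.79, 6.06, 3.91 and 5.09 times that of the library, higher in both fetal libraries. The 58 shared regions elsewhere on the autosomes had the same order by fold and by local background. Their median folds were 6.17, 7.48, 10.4 and 10.3. Fold was higher in adult rumen in 55 of these 58 and in 36 of the 42 members. Local background there was 5.89, 4.88, 3.85 and 4.50 times that of the library. Pileup over background was 50.7 ± 3.1 in fetal and 47.7 ± 3.3 in adult rumen (SD, n = 2 each). The fold difference was thus not particular to the first megabase. The parts of the added 1 and of the local background in the difference between the scales were not tested.

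Region by region, the ratio of adult over fetal pileup over background had a median of −0.05 on the log2 scale and ranged from −2.07 to 0.63, and 17 of the 42 were above 0. The 2 libraries of one age lay entirely above those of the other in 22 of the 42 members, with adult above in 7 and fetal above in 15. At the 58 shared regions elsewhere on the autosomes this held for 41.4%, with adult above in 15.5% and fetal above in 25.9%, so the members' counts are near the background.

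The members at the ends of that range are given next, picked with their values known. On autosome 18 from 16438 to 17371 the pileup was 68.7 and 56.3 times background in fetal 1 and fetal 2, and 16.1 and 13.7 in adult 1 and adult 2. On autosome 29 from 20498 to 21186 it was 62.6 and 72.8 in the fetal libraries and 13.9 and 19.9 in the adult ones. Their log2 ratios of adult over fetal were −2.07 and −2.0, and the groups did not overlap on this scale. By fold the region on autosome 18 did overlap, at 8.54, 10.9, 9.71 and 8.15, while that on autosome 29 had 13.6, 19.5, 8.44 and 12.6.

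The opposite end was held by the region on autosome 7 from 555405 to 555937 named above. Its pileup was 155.6 and 211.3 times background in fetal 1 and fetal 2 and 248.2 and 320.1 in adult 1 and adult 2. Next came a region on autosome 23 from 20929 to 21455, with 92.9, 105.6, 132.8 and 155.4. In both, the adult libraries lay above the fetal ones.

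**Figure D5:**
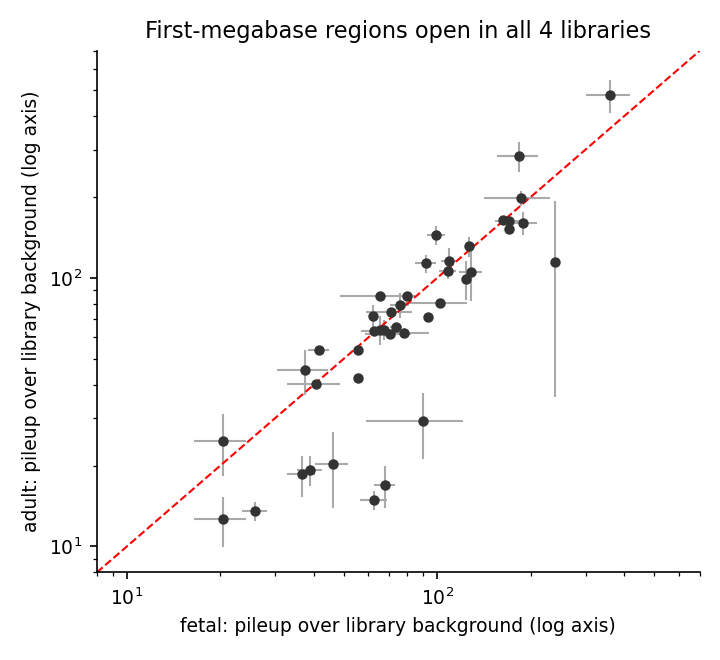
Pileup over the library's background in adult rumen (y axis, log) against fetal rumen (x axis, log) for the 42 members open in all 4 libraries; points are means of 2 libraries, bars join the 2 libraries, and the dashed line marks equal values. Most points lie near the line, and the 2 points furthest below it, on autosomes 18 and 29, have log2 ratios of −2.07 and −2.0.

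Adult-specific members were led by a region on autosome 28 from 624009 to 624091. Its fold was 59.3 and 47.2 in the adult libraries, at pileups of 248 and 211 fragments. It was 83 bp wide, near the narrowest peaks of the adult lists (67 bp in adult 1 and 81 bp in adult 2). On autosome 4 a region from 203565 to 203662 had folds of 44.3 and 35.8, and one from 169370 to 169670 had 27.4 and 20.9. A region on autosome 16 from 829569 to 829692 had 38.9 and 18.0. It lies less than 1 kb from the shared region at 828908 on that chromosome, and in both the fold of adult 2 was below that of adult 1. The fifth, on autosome 13 from 135608 to 135862, had 24.5 and 17.8. In each of these 5 regions adult 1 was the higher library.

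Over all 122 adult-specific members the median fold was 5.87 in adult 1 and 6.38 in adult 2, and the median width 145.5 bp. Their lower adult enrichment, pileup over local expected pileup, had a median of 6.93, against 10.8 in the 42 members open in all 4 libraries. The weakest fetal 2 peaks over plain background had an enrichment of 11.7, and 26 of the 122 (21.3%) reached that value in both adult libraries. Measured against the background of the whole library instead, 98 of the 122 did (80.3%). Among the 213 adult-specific regions elsewhere the shares were 17.4% and 50.2%, the first of them near that of the members. Against local expected pileup, 19 of the 42 members open in all 4 libraries (45.2%) reached 11.7 in both adult libraries. So did 13 of the 39 members of fetal 2 and both adult libraries (33.3%). Elsewhere the shares of these patterns were 50% and 40.5%. All regions of these patterns had a fetal 2 peak. The limit of 11.7 was taken over plain background, and these enrichments over local expected pileup. The shares therefore do not tell whether a region was too weak for a fetal call. The lists hold no fetal value at a region without a fetal peak, so how far fetal coverage accounts for the absence of a call there was not tested.

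Fetal-specific members were few. Their median pileup was 14.5 fragments in fetal 1 and 6.5 in fetal 2, below that of all member peaks of the same libraries (26 and 20). Their median folds, 6.55 and 5.12, were not both lower than those of all member peaks (5.31 and 5.34). On autosome 16 from 184056 to 184333 the fold was 6.63 in fetal 1 and 6.01 in fetal 2, at pileups of 16 and 11 fragments. On autosome 18 from 60907 to 61125 it was 5.02 and 5.34, at 8 and 7 fragments. Both others lay on autosome 13, from 91277 to 91780 (11.4 and 4.91, at 16 and 6 fragments) and from 201593 to 201793 (6.47 and 3.96, at 13 and 6). With −log10 q of at least 5 in every library, 1 of these regions was left, that on autosome 16.

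Members open in both ages but not in all libraries were mostly those that fetal 1 lacked. The strongest lay on autosome 16 from 109172 to 109312, with folds of 23.2 in fetal 2, 41.5 in adult 1 and 39.8 in adult 2. Next were regions on autosome 13 from 194386 to 194533 (11.7, 28.3 and 40.6) and from 105427 to 105683 (11.5, 13.4 and 14.0). The strongest members of a single library had folds of 10.0 in fetal 1 (autosome 1 from 127625 to 127935), 9.82 in fetal 2 (autosome 29 from 9653 to 9882), 13.1 in adult 1 (autosome 16 from 85751 to 85821) and 13.8 in adult 2 (autosome 13 from 30076 to 30156). Each lay below the folds of the 5 shared regions ranked first in the same library.

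Folds of shared members were set side by side by pairs of libraries. Across the 211 members of both adult libraries Pearson's r of log2 fold was 0.924, and across the 49 of both fetal libraries it was 0.887. The 4 pairs across the ages gave 0.806 (fetal 1 and adult 1, 54 members), 0.841 (fetal 1 and adult 2, 52), 0.898 (fetal 2 and adult 1, 83) and 0.898 (fetal 2 and adult 2, 88). Spearman's rho of these pairs was 0.703, 0.793, 0.868 and 0.894. Elsewhere on the autosomes the within-age values of r were 0.950 over 319 regions and 0.950 over 63. The pairs across the ages, in the order above, gave 0.860, 0.809, 0.899 and 0.857 there. These are descriptions across regions of the same libraries, and regions of a group share their local background.

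The share of autosomal peaks that lay in the first megabase depended on list length. In the full lists it was 14.9% in fetal 1 and 14.6% in fetal 2, and 7.89% in adult 1 and 5.10% in adult 2 (fetal 14.8 ± 0.2%, adult 6.50 ± 1.97%, SD, n = 2 each). The adult minus fetal difference was −8.28 percentage points (exact permutation p = 0.33). With the 496 strongest autosomal peaks of each library the order was reversed, with 14.9%, 22.2%, 45.2% and 46.8% and a difference of 27.4 percentage points (p = 0.33, exact permutation). No direction between the ages can be read from these shares.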

How the data were processed

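One peak list per library was analysed. The deposited lists have narrow-peak columns, and each row gives a position, a score (10 times −log10 q without decimals in all but 0 to 4 rows of a list), the fold enrichment as a ratio to a local background, and −log10 p and −log10 q within that library; the lists stop at a q-value of 0.050. For these lists the aligner, peak caller, filters and build were not given in the sources used here. Bowtie2, Bismark 0.16.3, Trimmomatic 0.36 and FastQC 0.11.5 appear in the submitters' processing notes, and the extraction text of the labels describes bisulfite libraries. Coordinates are 1-based on the authors' build. No genome was used, so no sequence or gene is given.

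From these lists, pileups were recovered by seeking a whole number k and a mean m with fold (k + 1)/(m + 1) and a matching Poisson p; this succeeded for 100% of each list at a relative tolerance of 0.0001. Read totals are not in the lists, so depth itself is not known and only the background is. Chromosome lengths were taken to the furthest peak. Shares carry Wilson 95% intervals and differences Newcombe's. Tests were exact permutations over libraries. Code ran in Python 3.11.15 with numpy 2.4.6, pandas 2.3.3 and scipy 1.17.1 and was tested on simulated data. Named regions were ranked by the lowest fold among the libraries with a peak: 5 each of the shared, adult-specific and fetal-specific members, 3 others of both ages, 1 per single library, the 3 widest, the 5 largest groups, and 3 on each side of the boundary. The members, lists and rules were chosen with earlier results of these data known. Alternatives were a −log10 q of at least 5, equally long lists, boundaries at 500000 and 2000000 bp, a 50% cover, joining within 1000 bp, and leaving out each library or autosome 13.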

Additional observations from a re-analysis of the deposited data

How the results depend on the processing

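Density, fold, width, strong-peak and local-background differences between the first megabase and the rest kept their mean direction under each alternative run, without any test able to pass 0.05. The adult minus fetal share of peaks was the exception, reversing to 27.4 percentage points with equally long lists. Of 120 recomputed values, named regions aside, 97 were labelled unchanged, 22 moved and 1 reversed. For results with a p-value, unchanged meant only the same sign, because no p could pass 0.05, so that label does not measure stability of size. The mean width difference, for example, fell from 53.5 to 15.25 bp at a −log10 q of at least 5 and was labelled unchanged. Of 31 named regions, the number of libraries with a peak changed for 10 at a −log10 q of at least 5 and for 7 with equally long lists. A −log10 q of at least 5 left 1 fetal-specific member, a recurrence difference of 31.1 percentage points and 83.7% of member gaps within 10000 bp (63.5% with all peaks), and equally long lists gave 83.8% of gaps. The boundary at 500000 bp gave 72.4% of gaps, and that at 2000000 bp gave 51.9% and a recurrence difference of 32.7. Without autosome 13 there were 2 fetal-specific members and 58.3% of gaps. Joining regions within 1000 bp left 144 recurring, 59 adult-specific and 2 fetal-specific members, which follows from merging neighbours. With 1 library omitted at a time, recurring members numbered 103 to 222, adult-specific ones 130 to 309, fetal-specific ones 5 to 24 and shared ones 44 to 83, with recurrence differences of 22.1 to 40.8 and 63.3% to 75.2% of gaps; having fewer libraries, or 1 in a group, sets these counts by construction. For the remaining changes the cause was not tested. With same-numbered libraries as pairs (replicate block) the adult minus fetal share difference was −8.28 percentage points (exact sign-flip p = 0.5, the smallest 2 pairs allow). The deviations of fetal 1 and adult 1 from their group means over the 29 autosomes correlated at −0.236, so the crossed pairing, chosen after seeing the data, was run too; neither gave a call. The weakest peaks over plain background had pileups of 5 fragments in fetal and 8 in adult libraries, which are 10.1, 11.7, 5.84 and 4.97 times the background. The part of coverage in missing fetal calls was not tested.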

Other observations

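The other ends of the autosomes were checked the same way. The last megabase before the furthest peak held 187 regions, of which 30 recurred (16.0%, 11.5 to 22.0), 12 were adult-specific and 9 were open in all 4 libraries. Median local background there was 2.44, 2.08, 1.17 and 1.18 times that of the library. Median folds there were 7.18, 8.48, 5.72 and 4.17, above those of the first megabase in all libraries but adult 2. The first megabase of X held 15 regions, 2 of them recurring (13.3%), where 204 of the 1293 regions of all of X recurred (15.8%). Unplaced scaffolds, which have no chromosome, were the stretch most like the first megabase in recurrence, with 3347 of 5858 regions (57.1%, 55.9 to 58.4). Their local background was also raised, by a median of 3.72 and 2.46 times that of the library in fetal 1 and fetal 2, but by 1.52 and 1.50 in adult 1 and adult 2. Their median folds, 8.73, 8.41, 7.87 and 7.21 in the same order, were above those of the first megabase in each library. So was their median −log10 q, at 17.2, 13.0, 16.2 and 15.7, against 8.51, 6.86, 14.6 and 10.1 in the first megabase. Median pileup on scaffolds was 27, 20, 31 and 32 fragments, and median region width 164 bp. Of the 5858 scaffold regions, 1601 were adult-specific and 881 were open in all 4 libraries. High q, pileup and recurrence were thus not particular to the first megabase.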
